A study of Mus musculus with 8 samples.

Results

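First-intron regions are the accessible regions of LSK cells that the deposited annotation places in intron 1 of a transcript. All 12272 MACS2 peaks with such an entry in the 4 ATAC-seq libraries were taken and merged wherever they overlapped, which gave 7992 regions of the 60531 regions that all peaks form (13.2%). Their widths ran from 200 to 2550 bp with a median of 365 bp. They lay in 4126 host genes, and 7579 of them had a host with a gene symbol. A region counted as present in a library when any peak of that library touched it, whatever the class of that peak.

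LSK cells are the lineage-negative, Sca-1+ and c-Kit+ fraction of mouse bone marrow, which holds the blood stem cells and the earliest progenitors. The study compared LSK cells of C57BL/6 mice labelled wild type (WT, 2 libraries) with LSK cells labelled DIDO3_exon16 mutant (Dido1∆E16, 2 libraries), and pre-B cells of the same 2 genotypes by RNA-seq (2 libraries each). The mutant mice carried 1 Dido1 allele without the 3′-terminal exon, exon 16, and 1 allele with that exon between loxP sites, which Cre driven by the Vav1 promoter removes in blood cells. The controls were not plain wild type: they were littermates with 1 floxed and 1 intact Dido1 allele and the same Vav1 Cre, which removes exon 16 from 1 of their copies in blood cells, and both genotypes carried a Cre-inducible R26R-EYFP reporter. Mice were young adults that the methods give as matched for sex and age, while a legend describes male mice of different ages for these libraries. The libraries of a genotype are described as biological replicates, and the RNA came from pools of mice. Which animals gave which ATAC-seq library is not stated, so p-values measure the spread between these libraries.

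The first intron is often the longest intron of a gene and is a common place for enhancers and for secondary promoters. Enhancers in blood progenitors are bound by factors such as RUNX, ETS and GATA proteins, and cells of different lineages use different ones. Promoters at CpG islands are open in most cell types, so accessible regions close to a start site and regions deep inside an intron can behave differently. DIDO3, the long product of Dido1, has a PHD finger that binds methylated histone H3 at active start sites.

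The sequences of 9 first-intron regions follow, each as the 300 bases at the centre of the region in GRCm38 (mm10), 5′ to 3′ on the strand of the host gene. Capitals mark matches, on either strand, to 14 short motifs. These were the ETS site CCGGAAG, the PU.1 site GAGGAAGT, the RUNX site TGTGGTT, the GATA site AGATAAG, an E-box of the form CAGCTG, a second E-box of the form CACGTG, the AP-1 site TGANTCA, the CTCF core AGGGGGCGC, the GC box GGGGCGG, the CCAAT box as AGCCAAT, the NRF1 core CGCATGCG, the cAMP response element TGACGTCA, the YY1 site AAGATGGC and the word AACTTT. Matches of different motifs may overlap. The first pair are the regions with the highest score percentile in all 4 libraries, the next is the best-scoring WT region with no Dido1∆E16 peak, and the next pair are the best-scoring Dido1∆E16 regions with no WT peak. The last 4 are the best-scoring shared WT regions of the first stem cell genes of the gene lists that have one.
Mdga2, chr12:67059395-67059694, minus strand: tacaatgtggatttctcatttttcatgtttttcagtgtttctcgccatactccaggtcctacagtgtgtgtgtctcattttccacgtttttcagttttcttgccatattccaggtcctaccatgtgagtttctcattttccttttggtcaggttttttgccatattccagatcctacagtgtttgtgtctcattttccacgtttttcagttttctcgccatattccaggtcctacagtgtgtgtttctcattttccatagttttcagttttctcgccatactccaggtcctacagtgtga
Litaf, chr16:10975023-10975322, minus strand: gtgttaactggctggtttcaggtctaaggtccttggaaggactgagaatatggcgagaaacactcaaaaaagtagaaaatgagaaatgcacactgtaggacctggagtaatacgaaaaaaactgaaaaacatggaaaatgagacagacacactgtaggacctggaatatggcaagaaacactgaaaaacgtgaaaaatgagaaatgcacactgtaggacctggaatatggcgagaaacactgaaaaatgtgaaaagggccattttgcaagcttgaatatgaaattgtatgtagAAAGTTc
Ank2, chr3:127355385-127355684, minus strand: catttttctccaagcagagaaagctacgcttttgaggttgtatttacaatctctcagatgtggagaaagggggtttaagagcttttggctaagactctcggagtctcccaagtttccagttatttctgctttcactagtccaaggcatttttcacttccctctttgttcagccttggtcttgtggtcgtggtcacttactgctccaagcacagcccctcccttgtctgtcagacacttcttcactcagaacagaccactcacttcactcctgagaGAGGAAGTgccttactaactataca
uc029vfx.1, chr5:15509310-15509609, plus strand: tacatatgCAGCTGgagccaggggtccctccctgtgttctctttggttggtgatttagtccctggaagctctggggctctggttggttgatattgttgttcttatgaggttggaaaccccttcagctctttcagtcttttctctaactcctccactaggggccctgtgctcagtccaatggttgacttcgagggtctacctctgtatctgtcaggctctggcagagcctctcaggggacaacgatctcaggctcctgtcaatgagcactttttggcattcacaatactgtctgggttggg
Ifi204, chr1:173787986-173788285, minus strand: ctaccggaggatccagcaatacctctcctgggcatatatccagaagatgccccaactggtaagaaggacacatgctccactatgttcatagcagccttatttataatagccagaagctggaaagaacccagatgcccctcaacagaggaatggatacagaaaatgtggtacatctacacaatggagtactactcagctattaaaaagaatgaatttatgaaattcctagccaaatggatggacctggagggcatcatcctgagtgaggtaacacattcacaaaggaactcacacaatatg
Tal1, chr4:115056861-115057160, plus strand: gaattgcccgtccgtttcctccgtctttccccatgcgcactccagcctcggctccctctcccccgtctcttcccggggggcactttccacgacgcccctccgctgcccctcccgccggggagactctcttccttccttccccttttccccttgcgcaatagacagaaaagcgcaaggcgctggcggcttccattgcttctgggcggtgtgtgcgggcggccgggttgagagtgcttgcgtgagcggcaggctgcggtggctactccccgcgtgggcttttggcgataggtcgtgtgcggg
Fli1, chr9:32509715-32510014, minus strand: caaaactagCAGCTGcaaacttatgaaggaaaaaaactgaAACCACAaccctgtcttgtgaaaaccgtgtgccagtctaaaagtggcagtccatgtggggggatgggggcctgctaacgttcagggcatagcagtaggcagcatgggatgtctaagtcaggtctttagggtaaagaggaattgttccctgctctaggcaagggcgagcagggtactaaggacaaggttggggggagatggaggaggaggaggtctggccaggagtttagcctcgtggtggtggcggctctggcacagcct
Mecom, chr3:30105138-30105437, minus strand: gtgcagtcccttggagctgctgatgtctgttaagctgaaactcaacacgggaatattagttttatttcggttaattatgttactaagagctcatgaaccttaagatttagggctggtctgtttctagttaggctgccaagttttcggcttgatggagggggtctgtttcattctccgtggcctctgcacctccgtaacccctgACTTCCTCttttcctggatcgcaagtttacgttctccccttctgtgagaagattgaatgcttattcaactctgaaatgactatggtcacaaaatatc
Etv6, chr6:134065032-134065331, plus strand: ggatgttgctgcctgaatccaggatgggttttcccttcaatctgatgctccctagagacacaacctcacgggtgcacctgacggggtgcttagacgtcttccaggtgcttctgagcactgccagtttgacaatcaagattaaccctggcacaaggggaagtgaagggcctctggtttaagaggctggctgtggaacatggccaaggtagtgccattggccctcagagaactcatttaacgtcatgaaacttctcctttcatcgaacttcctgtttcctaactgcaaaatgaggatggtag

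The Mdga2 and Litaf windows resembled each other: 18.9% of the 15-base words of the first were also in the second on either strand, and 19.6% of those of the second were in the first. The Ank2 window had no 31-base word that occurs a second time in the assembled chromosomes. By contrast, all 31-base words of the Ifi204 window occurred again, with a median of 15861.5 copies per word. The uc029vfx.1 window had 65.2% of its words repeated.

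WT replicates 1 and 2 had 2911 and 7013 first-intron peaks. Dido1∆E16 replicates 1 and 2 had 969 and 1379, so both mutant libraries had fewer than either WT library. First-intron peaks were 10.6% and 12.1% of all peaks in WT, and 7.34% and 8.45% in Dido1∆E16. The mean share was 11.4% ± 1.06 in WT and 7.89% ± 0.784 in Dido1∆E16 (SD, n = 2 each), and the groups did not overlap. The two-sided exact permutation p was 0.333, the smallest that 2 libraries against 2 allow. With HOMER peaks the difference was -1.74 points and the groups overlapped (exact permutation p = 0.667).

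This difference in share came with the number of peaks. The libraries held 27352, 57739, 13208 and 16329 peaks, in the order WT replicates 1 and 2 and Dido1∆E16 replicates 1 and 2, from 10249256, 52050898, 22533077 and 44633938 tags. The library with the fewest tags, WT replicate 1, had more peaks than either mutant library. When the 13208 best-scoring peaks of each library were taken, first introns held 7.82% and 6.94% of them in WT and 7.34% and 7.42% in Dido1∆E16. The means were then equal at 7.38%, with an exact permutation p of 1.

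Among intronic peaks, first introns had the larger share in the mutant. They made up 38.8% and 36.5% of the intronic peaks in WT, and 45.5% and 42.2% in Dido1∆E16, a difference of 6.18 percentage points between groups that did not overlap (exact permutation p = 0.333, the smallest possible). With equal peak numbers the values were 37.6% and 34.9% against 45.5% and 41.1%. Among peaks over 2 kb from the nearest transcription start site (TSS), the share was 33.8% and 33.1% in WT and 37.4% and 34.7% in Dido1∆E16. Among peaks over 10 kb away it was 29.2% and 28.2% against 32.1% and 30.4%, so the direction was the same at a smaller size. Against promoters, which the authors defined as 1 kb upstream to 200 bp downstream of a start site, the direction was the opposite. The ratio of first-intron to promoter peaks was 0.297 and 0.538 in WT and 0.125 and 0.177 in Dido1∆E16 (exact permutation p = 0.333). At equal peak number it was 0.159 and 0.138 against 0.125 and 0.141, and the groups overlapped.

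**Figure D1:**
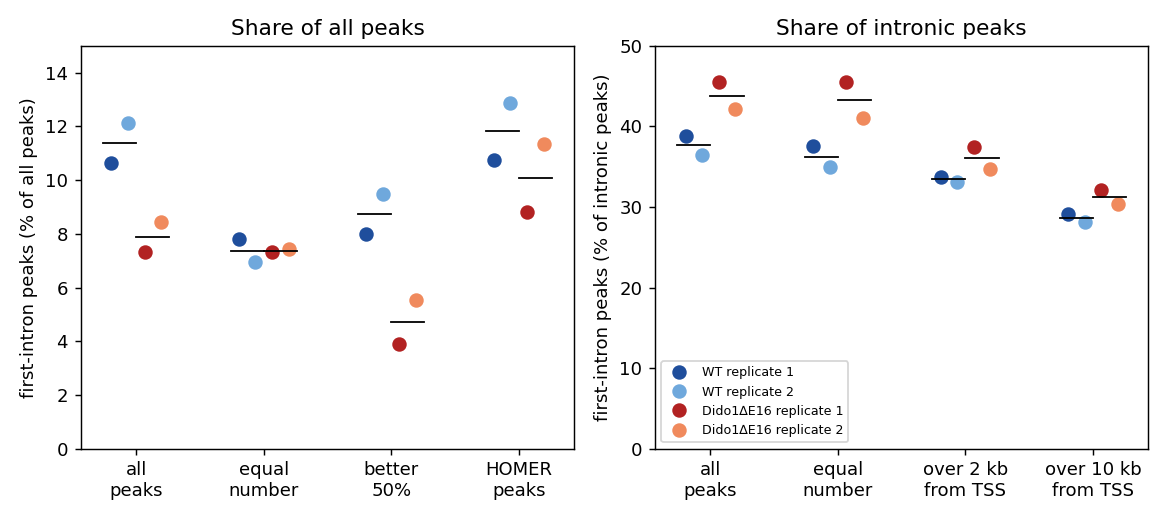
First-intron peaks as a percent of all peaks (left) and of all intronic peaks (right), one point per library and a black line at each genotype's mean of 2, for all MACS2 peaks and for other selections of peaks. The gap of 11.4% against 7.89% on the left closed to 7.38% in both genotypes at equal peak number, while on the right both Dido1∆E16 points lay above both WT points in each selection.

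First-intron peaks were narrow and low in score beside promoter peaks. Their median width was 317 and 370 bp in WT and 299 and 308 bp in Dido1∆E16, against 557, 779, 504 and 517 bp for promoter peaks in the same order. The MACS2 score is a scaled significance that grows with depth, so it was read as a percentile among the peaks of the same library. The median first-intron peak stood at percentile 38.6 and 40.9 in WT and 31.4 and 36.2 in Dido1∆E16, and the median promoter peak at 69.4, 77.6, 61.8 and 63.9. Both Dido1∆E16 values for first introns lay below both WT values, by 5.92 points on average (exact permutation p = 0.333). Within the better-scoring 50% of each library's peaks the difference was 0.592 points and the groups overlapped. These traits were not particular to first introns. Later-intron peaks had median widths of 308, 350, 296 and 313 bp and median percentiles of 40.9, 43.5, 31.4 and 39.0 in the same order. The median intergenic peak stood at 43.0, 44.7, 36.8 and 39.0. In later-intron, intergenic and promoter peaks too, both mutant percentiles lay below both WT percentiles.

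Most first-intron regions were seen in a single library. Of the 7992 regions, 4631 had a peak in 1 library, 2006 in 2, 832 in 3 and 523 in all 4. The deepest library, WT replicate 2, alone gave 4245 of them, at a median percentile of 27.8 in that library, against 87.0 for the regions seen in all 4. A peak was present in 38.6% and 95.0% of the regions in WT replicates 1 and 2, and in 13.3% and 18.8% in Dido1∆E16 replicates 1 and 2. The regions lay 13877 bp from the nearest TSS at the median, and the host introns were long, with a median of 34868 bp against 3031 bp over 50843 transcripts with an intron.

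Both WT libraries shared 2883 first-intron regions, and these are the regions in which loss of a peak can be followed. Of them, 1595 had no peak in either Dido1∆E16 library (55.3%, exact 95% binomial interval 53.5 to 57.2, counting error only), 765 had a peak in 1 and 523 in both. Over the merged regions of all classes the share without a Dido1∆E16 peak was 43.1%. Dido1∆E16 replicate 1 lacked 73.6% and replicate 2 lacked 63.5% of the shared WT first-intron regions. By class, 14.9% of promoter regions, 64.8% of later-intron regions and 59.2% of intergenic regions had no peak in either mutant library. First introns thus stood between promoters and later introns. Of the 2883 regions, 163 had their first-intron peak in a mutant library only, so they could not count as lost. Without them 58.6% had no mutant peak. At equal peak number, 694 first-intron regions were shared by the WT libraries and 169 of them (24.4%) had no Dido1∆E16 peak.

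Loss was more frequent among regions that scored low in WT. The shared WT regions of the 4 classes were divided into 5 classes of equal size by their mean WT score percentile. From the lowest to the highest class, 81.0%, 64.3%, 53.1%, 29.8% and 5.06% of first-intron regions had no Dido1∆E16 peak. These shares include the 163 regions that could not count as lost. Their median WT percentile was 70.8, against 52.7 for the other 2720. Promoter regions of the same classes gave 59.9%, 28.9%, 15.05%, 5.59% and 0.367%. Later-intron regions gave 89.1%, 76.9%, 64.8%, 40.0% and 7.98%, above first introns in each class. The score classes do not match distance to a TSS. Within 2 kb, 40.4% of 717 first-intron regions and 40.2% of 82 later-intron regions had no mutant peak. Beyond 10 kb these were 60.5% of 1601 and 65.4% of 3928. The mean gap between first introns and promoters over the score classes was 24.7 percentage points, and 14.7 points at equal peak number. It was 32.7 and 21.6 points for Dido1∆E16 replicates 1 and 2 taken singly. Over regions with a peak of their own class in a WT library, chosen after seeing the data, it was 26.9 points. Only 257 of the 2883 first-intron regions reached the highest class, in which 68.5% had a peak in both mutant libraries.

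**Figure D2:**
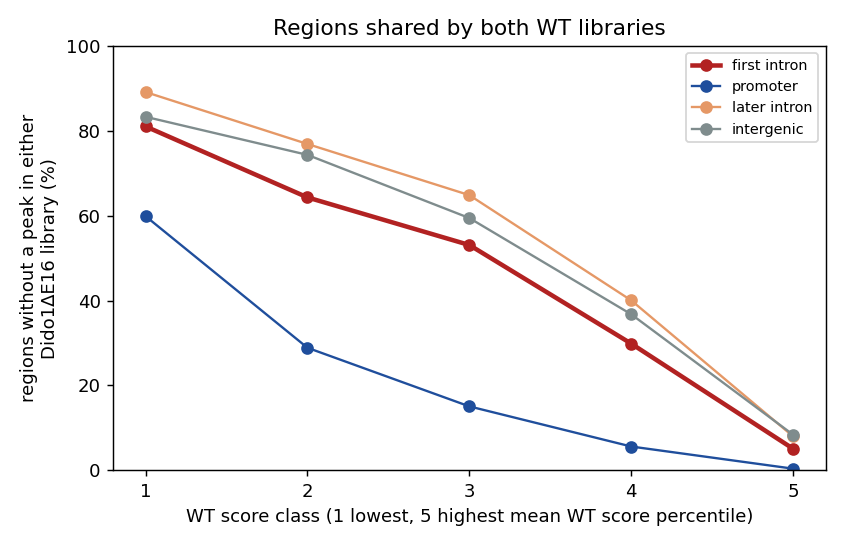
Percent of the regions shared by both WT libraries that had no peak in either Dido1∆E16 library, by class of mean WT score percentile (1 lowest, 5 highest), for 4 annotation classes. First introns ran from 81.0% to 5.06%, above promoters and below later introns in each score class. The 163 regions with their first-intron peak in a mutant library only, which could not count as lost, are included.

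Regions next to a start site kept a peak more often. Of the 525 shared WT regions up to 1 kb from a TSS, 35.0% had no Dido1∆E16 peak, against 55.2% of the 192 regions at 1 to 2 kb, 60.4% at 2 to 5 kb, 59.2% at 5 to 10 kb, 59.8% at 10 to 50 kb and 61.8% of the 544 regions beyond 50 kb. Within 2 kb the share was 40.4% and beyond 10 kb 60.5%, a difference of 20.02 points, which HOMER peaks gave as 6.22. The difference was smaller when the WT peaks alone decided which regions were counted, a choice made after seeing the data. Over the regions with a first-intron peak in a WT library it was 12.3 points (49.2% within 2 kb and 61.5% beyond 10 kb). Among the 717 regions within 2 kb, 383 carried a WT peak of another class, mostly promoter, and 26.9% of those had no mutant peak. The other 334, in which every WT peak was annotated to intron 1, gave 56.0%, beside 61.4% of such regions beyond 10 kb.

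Regions that kept a peak held more CpG dinucleotides. Shared WT regions with a peak in both Dido1∆E16 libraries held a median of 9 per 300-base window, those with a peak in 1 held 6 and those with none held 4. Of the 550 regions with 12 or more CpG, 27.6% had no mutant peak, against 55.6% at 6 to 11, 64.2% at 3 to 5 and 65.5% of the 658 regions at 0 to 2. The mean WT percentile did not order the bins in this way, with medians of 57.5, 52.8, 51.9 and 54.7. Within 2 kb of a TSS, 35.4% of regions with 6 or more CpG and 58.1% of regions with fewer had no mutant peak. Beyond 2 kb these were 367 of 734 regions and 938 of 1432 regions (65.5%). Among regions whose every WT peak was annotated to intron 1, the shares from the lowest to the highest CpG bin were 65.5%, 64.8%, 58.4% and 36.8%. The difference in the median CpG count, 5 over all shared WT regions, was 1.5 among these regions, 3 over the regions with a first-intron peak in a WT library and 2 when Dido1∆E16 replicate 1 was left out. Regions of later introns followed the same order, at 70.7%, 66.8%, 60.2% and 39.6%, so first introns and later introns shared the order.

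**Figure D3:**
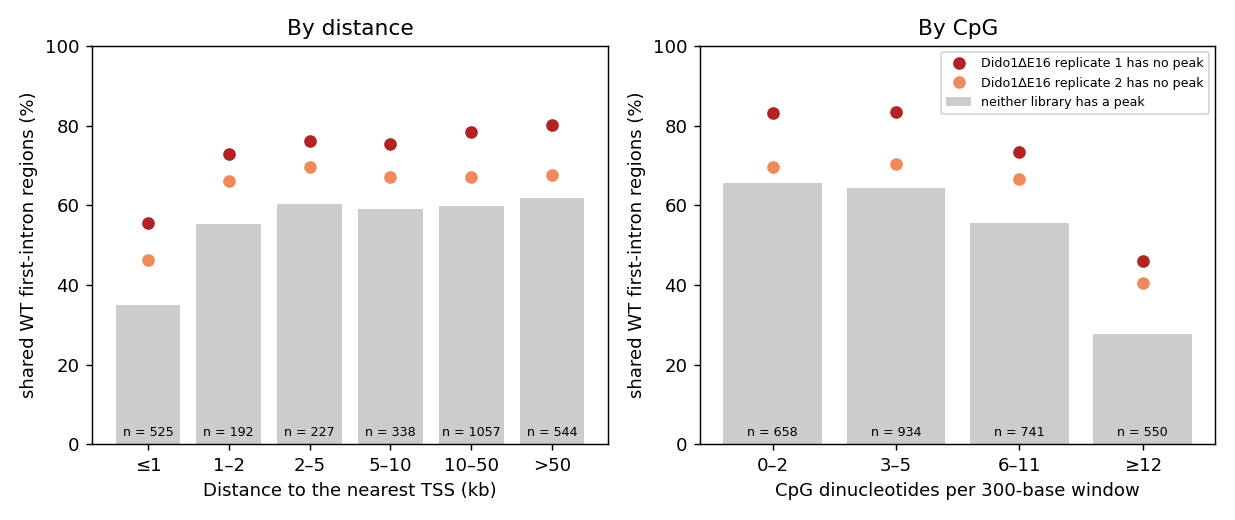
Shared WT first-intron regions by distance to the nearest TSS (left) and by CpG count in the central 300 bases (right). Grey bars give the percent with no peak in either Dido1∆E16 library, red and orange points the percent each mutant library lacked, and n the regions per bin. The bars fell to 35.0% up to 1 kb from the TSS and to 27.6% at 12 or more CpG.

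Some of the 14 motifs differed in frequency with retention. The groups include the 163 regions whose first-intron peak was in a mutant library only, which could not fall in the group with none. Of these 163, 125 held 12 or more CpG and 27 lay beyond 10 kb from a TSS. Motif shares without them were not computed, so part of each order may have been fixed by the selection. The median GC content was 55.7% for regions with a peak in both mutant libraries and 48.7% for those with none, and its part in the motif counts was not tested. The GC box GGGGCGG, the core site of SP and KLF proteins, was in 19.3% of the 523 windows with a peak in both mutant libraries, 11.1% of those with 1 and 5.71% of the 1595 with none. It was in 7.75% of all first-intron windows and 37.8% of all promoter windows of the same length. The RUNX site TGTGGTT ran the other way, at 10.1%, 15.03% and 17.2%, with 13.5% of all first-intron, 3.30% of promoter and 14.3% of later-intron windows. The PU.1-type site GAGGAAGT was in 8.03%, 9.80% and 11.8%, with 8.82% of all first-intron and 3.17% of promoter windows. The word AACTTT, a conserved promoter word with no known factor, was in 10.5%, 12.3% and 15.8%, with 14.8% of all first-intron, 8.46% of promoter and 16.2% of intergenic windows. Beyond 10 kb from a TSS the order was the same between the 228 regions with a peak in both mutant libraries and the 968 with none. The GC box was in 10.5% against 3.62%, the RUNX site in 12.3% against 19.6% and AACTTT in 10.1% against 17.3%. The GATA site AGATAAG was in 3.25% of windows with a peak in both mutant libraries, 5.49% with 1 and 4.33% with none, so it had no such order. Nor had the E-boxes, with CAGCTG in 22.8%, 24.3% and 21.4%, and the AP-1 site was in 9.56%, 11.6% and 12.5% of all these windows but in 15.4% against 13.3% beyond 10 kb. No test was applied over regions, and a match of letters is not a bound site.

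Regions seen in Dido1∆E16 cells and not in WT were few, and more of them were repeated sequence than of the regions seen in WT. Of the 7992 regions, 204 had a peak in a mutant library and in no WT library, and 8 of the 598 with a peak in both mutant libraries had none in WT. Among merged regions of all classes with a peak in both mutant libraries, 1.01% had no WT peak. In each window the 31-base words found again in chromosomes 1 to 19, X, Y or the mitochondrial genome were counted, and a region was called mostly repeated when they exceeded 50%. This held for 8 of the 8 regions, for 17 of 42 seen in Dido1∆E16 replicate 1 alone and for 92 of 154 seen in replicate 2 alone. It held for 117 of the 204 (57.4%), for 461 of all 7992 regions (5.77%), for 35 of the 1595 shared WT regions with no mutant peak (2.19%) and for 29 of the 523 with a peak in both (5.54%). No window matched the mitochondrial genome over more than 50% of its words.

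Among the best-scoring of these 8 regions, 2 lay in intron 1 of Ifi204 and 2 in transcripts without a symbol. The region in uc029vfx.1 scored 27 and 29 in Dido1∆E16 replicates 1 and 2, or percentiles 25.7 and 49.1. The better of the Ifi204 pair, an interferon-inducible gene, scored 15 and 34. These scores were low beside the highest first-intron score of 704 and 968 in the same libraries. How the aligners placed reads from such copies was not tested.

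**Figure D4:**
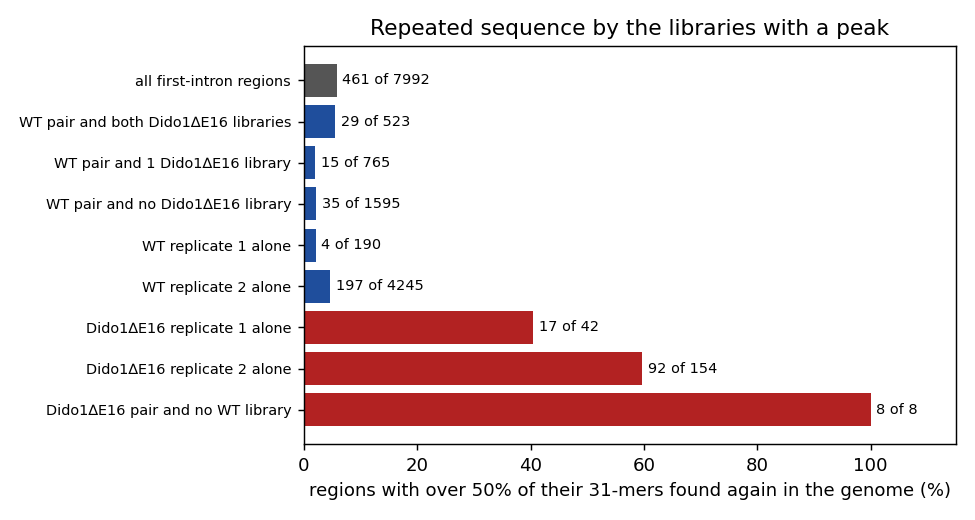
Percent of first-intron regions with over 50% of their 31-base words found again in the assembled genome, by the libraries in which the region had a peak, with counts beside the bars. Sets seen only in Dido1∆E16 libraries reached 40.5%, 59.7% and 100%, against 1.96% to 5.54% in the 5 sets that included a WT library.

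The regions with the highest percentile in all 4 libraries were partly repeated as well. The Mdga2 region, chr12:67059097-67059991, scored 500 and 908 in WT and 704 and 968 in Dido1∆E16, above percentile 99.9 in each, and 51.5% of its words were repeated. The Litaf region, chr16:10974988-10975356, scored 405, 652, 569 and 612 in the same order. The next were in Cldn34d, 2700054A10Rik and Smo, the signal transducer of the Hedgehog pathway. All 5 had percentiles of at least 98.0 in each library, and their repeated share ran from 23.3% to 83.7%. The widest first-intron region, 2550 bp in 2700054A10Rik, held 0 CpG in its central window.

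The best-scoring WT regions with no mutant peak had unique sequence. Ank2, which encodes an ankyrin that anchors membrane proteins, carried one 53497 bp inside the gene, at percentiles 90.5 and 96.4 in WT replicates 1 and 2. Regions of Slc7a5, a transporter of large neutral amino acids, of Ccser1 and of Dpp10 stood at 91.9 and 88.4, 88.4 and 90.1, and 90.5 and 87.9. In these 4 genes both WT libraries placed the region among their better-scoring peaks, all 31-base words were unique and the central window held 3 CpG.

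A few genes held many first-intron regions. The host named Bc1 by the annotation had 25, in a transcript model with an intron 1 of 672218 bp on chromosome 10, and 6, 25, 8 and 6 of them had a peak in WT replicates 1 and 2 and Dido1∆E16 replicates 1 and 2. Zfp982 had 23, of which 11 were mostly repeated, with peaks in 6, 15, 3 and 16. It was the only one of these genes in which a mutant library had more regions with a peak than each WT library. Slc8a1, a sodium-calcium exchanger, had 19 (9, 19, 1 and 6). Maml3, a coactivator of Notch signalling, had 17 (7, 16, 5 and 7), and the host named Mir466p had 17 (8, 17, 3 and 2). Whether the very long transcript models behind Bc1, Zfp982 and Mir466p are sound was not checked.

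Genes of blood stem cells followed the first-intron regions as a whole in having fewer regions with a peak in each mutant library than in each WT library. Of 18 stem and progenitor factors, 11 hosted 42 regions, of which 11, 41, 7 and 4 had a peak in WT replicates 1 and 2 and Dido1∆E16 replicates 1 and 2. The WT libraries shared 11 of these regions, and 4 had no mutant peak, in Fli1, Mecom, Etv6 and Cbfa2t3. That is 36.4%, beside 55.3% of all shared WT first-intron regions. Only 1 of the 11, in Fli1 31588 bp from the start of its transcript, had a peak in both mutant libraries.

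Fli1, an ETS factor of stem cells and megakaryocytes, had 8 regions. The shared one at chr9:32509578-32510151 stood at percentiles 54.9 and 64.2 in WT and 13.7 and 18.1 in Dido1∆E16. The one nearest the start, 1127 bp inside, stood at 74.1 and 33.8 in WT and had no mutant peak. Etv6, an ETS repressor needed by bone marrow stem cells, had a region 29481 bp inside at percentiles 79.8 and 79.8 in WT with no mutant peak. Mecom, the gene of the stem cell factor EVI1, lost a region at percentiles 54.9 and 39.6 and kept another in Dido1∆E16 replicate 2 alone. Tal1, a bHLH factor that starts blood formation, had 1 region 584 bp inside with 28 CpG, present in Dido1∆E16 replicate 1 at percentile 15.6 and absent from replicate 2. Erg, an ETS factor of stem cells, had 6 regions, all in WT replicate 2 alone, so nothing can be said of them in the shallower WT library.

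Of 22 lymphoid and B-lineage factors, 11 hosted 27 regions, with peaks in 12, 26, 6 and 4. The WT libraries shared 12, of which 7 (58.3%) had no mutant peak, near the 55.3% of all shared WT first-intron regions. Those were 2 in Flt3, the receptor of lymphoid-primed progenitors, 2 in Klf3, and 1 each in Foxo1, Satb1 and Dntt, the terminal transferase of immature lymphocytes. Their WT percentiles were low to middling, from 2.77 to 54.5. Bach2, a repressor of plasma cell fate, kept all 3 shared regions in at least 1 mutant library, and the one 794 bp inside the gene was in all 4, at percentiles 28.4, 75.9, 4.71 and 8.72. Mef2c, which promotes lymphoid fate in progenitors, kept a region 14301 bp inside at percentiles 58.1 and 92.2 in WT and 41.8 and 70.5 in Dido1∆E16.

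The other lists held fewer regions. None of the 12 myeloid factors hosted one, although 10 had a peak of some class. Epor, the erythropoietin receptor gene, lost a region 909 bp inside the gene at percentiles 82.7 and 84.8, and Bcl11b and Lef1, of the T lineage, each lost their shared region. Of 14 Polycomb genes, 5 hosted 6 regions, and both shared WT regions, in Pcgf5, had a peak in both mutant libraries. The Pcgf5 region 662 bp inside the gene held 38 CpG and stood at 74.9, 65.7, 4.71 and 49.1, and the one 27050 bp inside held 6 CpG and stood at 47.3, 65.0, 48.3 and 5.87. Of 15 cell cycle and signalling genes, 8 hosted 19 regions, and 4 of the 8 shared ones had no mutant peak, among them regions of Igf1r, Stat5b and Ccnd3. Ccnd3, the D-type cyclin of lymphocyte precursors, kept 2 of 3 shared regions. Kit, the stem cell factor receptor by which LSK cells are sorted, kept its shared region, 884 bp inside, in Dido1∆E16 replicate 2 alone, at percentile 21.2 against 38.6 and 83.8 in WT. Dido1 itself hosted 2 regions, both in WT replicate 2 alone.

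**Figure D5:**
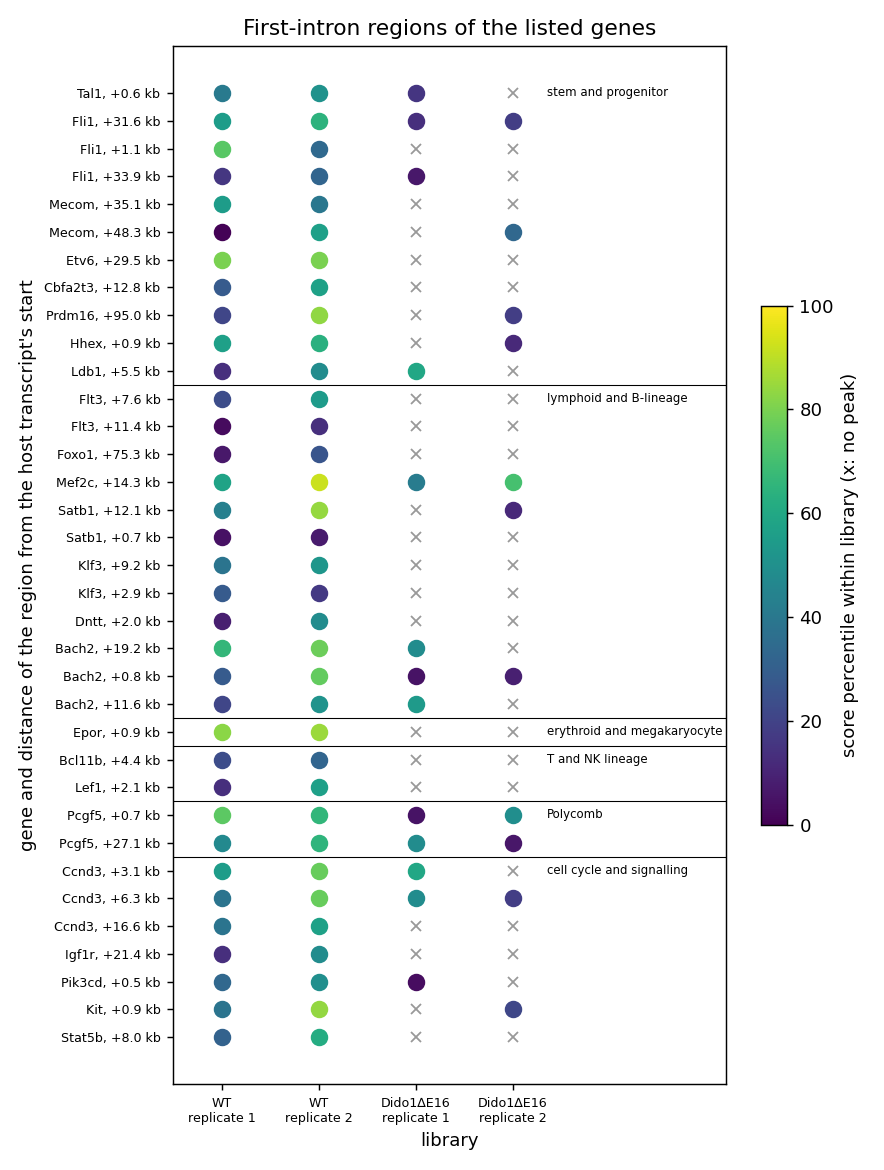
First-intron regions of the listed genes that both WT libraries shared (35 regions shown), one row per region with its distance from the start of the host transcript, and one column per library. Colour gives the score percentile within the library, and a cross marks no peak. Of the 35 rows, 17 have a cross in both Dido1∆E16 columns and 6 have a point in all 4.

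The identity of the sorted cells was read from peaks of any class at marker genes. Of 10 LSK markers, 9 and 10 had a peak in WT replicates 1 and 2 and 5 in each Dido1∆E16 library. Of 6 neutrophil and monocyte markers, 2 and 5 had one in WT and 0 and 1 in Dido1∆E16. Of 5 T cell markers, 2 in each WT library and 1 in each mutant library had one. B cell markers (1 and 3 against 2 and 1 of 5) and erythroid markers (2 and 4 against 1 and 2 of 5) overlapped between genotypes. The LSK, neutrophil and monocyte, and T cell lists were thus lower in both mutant libraries. Those libraries also held fewer peaks of any class, 13208 and 16329 against 27352 and 57739 in WT. The share of all genes with a peak was not set beside the marker counts, so a lower list is not particular to its cell type. The part of the marker lists in the results was not tested. Peaks cannot check the genotype of these libraries, since only WT replicate 2 had a peak in exon 16 of Dido1. In bulk samples, fewer cells of a type and less open chromatin per cell cannot be told apart.

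Scores were compared where they existed in all 4 libraries. Of 9072 merged regions with a peak in each, 689 included a first-intron peak. Log2 scores were quantile-normalised and fitted with limma. A change needed an adjusted p under 0.05 over all regions and a log2 fold change of at least 1 in size. Over all regions 43 changed (0.474%), and 42 of these were higher in Dido1∆E16. Among regions of later-intron peaks alone 11 of 478 changed (2.3%), and among those of intergenic peaks alone 25 of 1154 (2.17%), all higher. Of the 689 first-intron regions 2 changed (0.29%), both also higher. They were a region of Sspn, which encodes sarcospan of muscle membranes, at chr6:145932715-145933114, and one of Grk5, a kinase of G protein-coupled receptors, at chr19:60924597-60924872.

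The Sspn region scored 45 and 122 in WT and 113 and 178 in Dido1∆E16, which are overlapping raw scores, and its normalised log2 fold change was 1.81 ± 0.353 (SE, limma adjusted p = 0.0118). The Grk5 region scored 132 and 255 in WT and 262 and 299 in Dido1∆E16, with 1.24 ± 0.259 (SE, limma adjusted p = 0.0181). Both were mostly repeated, with 86.3% and 65.9% of words found again. Of the 40 first-intron regions higher in Dido1∆E16 at an unadjusted p under 0.05, 13 were mostly repeated, against 1 of the 34 lower ones and 29 of all 689. The median log2 fold change of the 335 regions touched by first-intron peaks alone was -0.16, against 0.0055 for 6080 promoter regions and -0.25 for 478 later-intron regions. Leaving out any 1 of the 4 libraries left 0 calls by limma, with 21 to 126 first-intron regions at an unadjusted p under 0.05. Without normalization the median over all regions was -1.01, and 0 regions were called.

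RNA-seq gave another readout of the host genes, in pre-B cells. These are a later stage of the B lineage than LSK cells, so a level there does not report on the LSK cells. The labels were checked on Dido1: coverage of its last exon, the one that the mutation removes, was 50.8% and 41.8% of the median of the other exons in WT and 0.947% and 0.21% in Dido1∆E16. Gene levels were sums of the authors' TPM, a level scaled to transcript length and library size. Dido1 as a whole stood at 44.3 and 46.0 TPM for WT and 81.6 and 87.2 TPM for Dido1∆E16, which did not pass (limma adjusted p = 0.191). The 16-exon transcript went the other way, at 35.7 and 35.0 TPM for WT and 14.9 and 19.4 TPM for Dido1∆E16, and the median coverage of its exons other than the last was 30.1 and 24.4 against 20.2 and 18.5. A mean of at least 1 TPM was required, and 2408 host genes passed. Levels were fitted by limma on log2(TPM + 1), and a change needed an adjusted p under 0.05 and a log2 fold change of at least 0.6 in size. Of 11702 genes, 6 changed (0.0513%), and 0 of the 2408 host genes did. At an unadjusted limma p under 0.05 were 362 of the host genes and 1369 of all 11702 genes. Without the mean-variance trend 20 of the 2408 host genes passed, all higher, beside 89 of all 11702 genes. The median log2 fold change was 0.13 over host genes and 0.070 over all genes. It was 0.17 for the 701 hosts of a region that both WT libraries and no mutant library had, and 0.11 for the 367 hosts of a region in all 4.

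Among the listed hosts, Erg stood at 13.4 and 7.06 TPM for WT and at 114 and 88.8 TPM for the mutant, groups that did not overlap, with a log2 fold change of 3.24 ± 0.346 (SE, limma adjusted p = 0.151). Kit stood at 1.63 and 0.599 against 9.74 and 9.06 TPM, and Lef1 at 80.5 and 43.2 against 194 and 147. Neither passed, with limma adjusted p = 0.219 and 0.297. Dntt stood at 48.7 and 7.18 against 191 and 96.0. The groups did not overlap, and Dntt did not pass (limma adjusted p = 0.409). Hosts of the B lineage programme did not pass either: Foxo1 stood at 303 and 393 against 298 and 301, and Bach2 at 510 and 520 against 477 and 466. Etv6, which lost its shared region in LSK cells, stood at 23.1 and 25.1 against 45.7 and 34.5 (limma adjusted p = 0.347). Some myeloid and erythroid transcripts were highest in Dido1∆E16 replicate 2. Mpo was at 3.58, 17.95, 10.9 and 209 TPM and Hba-a1 at 141, 437, 321 and 4008 TPM (WT replicate 1, WT replicate 2, mutant replicate 1, mutant replicate 2). Others of the same lists were not highest there, such as Spi1, Gfi1, Irf8 and Zfpm1, and Tfrc and Klf4 were lowest there. The part of such transcripts in the values of the host genes was not tested. Without Dido1∆E16 replicate 2 the median log2 fold change was 0.11 over host genes and 0.094 over all genes.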

How the data were processed

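Omni-ATAC-seq of LSK cells (4 libraries) and RNA-seq of pre-B cells (4 libraries) were used. The authors aligned reads to mm10, removed duplicates, called peaks in each library (MACS2, HOMER) and annotated them with ChIPseeker. The deposited MACS2 score and peak widths were used as given; the HOMER score is constant. The deposited StringTie files give TPM and exon coverage, and depth is not given for them. Total tags came from a header of the authors' differential tables, whose log2 fold changes and p-values, like the authors' edgeR tables, were not used. Transcripts were assigned to GENCODE M21 genes by at least 50% exonic overlap (bedtools 2.31.1, 97.1% of TPM). Sequence came from GRCm38. Tests were exact permutations over libraries (scipy 1.17.1) and limma 3.58.1 in R 4.3.3, the latter tested on simulated data. Of 200 features given a log2 fold change of 1 there, the score fit recovered 8% and the TPM fit 0%. At a log2 fold change of 3 these were 97% and 42%. The study describes 3 ATAC-seq samples in one place and 2 replicates in another, and the labels name 2 for each genotype.

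The regions, gene lists, motifs and tests were chosen with earlier results of these data known. Genes named host a shared WT region or, for Erg and Dido1, chosen after their values were seen, any region. Exceptions are Mpo, Hba-a1, Spi1, Gfi1, Irf8, Zfpm1, Tfrc and Klf4, named from the myeloid and erythroid lists for their pre-B levels. The other regions named are from the 5 best-scoring of each pattern of libraries, the 5 hosts with most regions and all called regions. The count of repeated words, the splits by annotation and the values of Mpo, Hba-a1 and the genes set beside them were added after seeing the data. Alternatives were HOMER peaks, equal or better-scoring peaks, a stricter overlap, other normalizations, pseudocounts and filters, and leaving out each library. Some regions that these choices select are not reported here, though they stay in the counts.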

Additional observations from a re-analysis of the deposited data

How the results depend on the processing

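Direction held under all alternatives for the share of intronic peaks, the ratio to promoters, the width and the score percentile, and for the share of all peaks except at equal peak number, where the difference was 0. Leaving out 1 library at a time gave differences (Dido1∆E16 minus WT) of -4.26 to -2.75 points for the share of all peaks, 4.54 to 7.81 points for the share of intronic peaks, -0.387 to -0.146 for the ratio to promoters, -66.5 to -13.5 bp for the width and -8.29 to -3.56 points for the percentile. Shared WT regions without a mutant peak were 37.9% with HOMER peaks, 24.4% at equal peak number, 60.7% with the better-scoring 50% and 60.7% with regions annotated to intron 1 in every library (a selection that mutant peaks help decide), and 57.9% to 77.0% without 1 library, highest without WT replicate 1. Chosen after seeing the data, regions whose WT peaks were all annotated to intron 1 gave 60.5%, and regions with a peak of their class in a WT library gave 58.6%. The difference between regions beyond 10 kb and within 2 kb was 6.22, 15.9, 10.6 and 4.66 points in that order, 17.3 with at least 50% overlap, 5.39 and 12.3 in the 2 selections by WT peaks, and 15.7 to 21.1 without 1 library. The CpG difference was 2 with HOMER peaks, 3 at equal peak number, 1 with regions annotated to intron 1 in every library, 3 in a 150-base window, 1.5 and 3 in the selections by WT peaks, and 2 to 5 without 1 library. The gap to promoters was 14.7 points at equal peak number and 20.7 to 32.7 without 1 library.

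Calls were few. The count of first-intron regions changed in score was 2, 0 without normalization, 4 with median-centring, 0 without a trend, 0 to 0 without 1 library and 11 with a replicate block. Host genes changed in pre-B cells numbered 0, 20 without a trend (89 over all 11702 genes) and 0 with the replicate block. Without Dido1∆E16 replicate 2 the count did not stay at 0. That fit leaves 1 mutant library, so its count is not given. Leaving out 1 library gave median log2 fold changes of 0.060 to 0.21 over host genes and 0.0047 to 0.15 over all genes. The labels do not say whether replicate numbers pair samples, and the main fits took them as unpaired. Deviations of same-numbered libraries correlated at -0.0589 for scores and 0.0554 for TPM, which cannot settle whether they share a litter or a sort. The causes were not tested. Peak presence depends on depth, which ran from 10249256 to 52050898 tags within WT, and 2 libraries per genotype cannot pass an exact test.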
